A study of Mus musculus with 12 samples.

Results

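Luteolin and quercetin were compared directly in induced 3T3-L1 cells, a mouse fibroblast-like line that stores fat after a hormonal induction. The comparison used 6 of the 12 RNA libraries of the series, 3 with luteolin and 3 with quercetin, chosen by their titles, and every gene past a low-count filter (14855 of 54532). All cells were labelled WT and taken on day 6. The luteolin and quercetin groups carried the same induction cocktail, DMI: IBMX at 0.5 mM and dexamethasone at 1 uM until day 2, and insulin at 10 ug/ml until day 4, followed by medium with serum. Induced cells without a compound (DMI, 3 libraries) and untreated cells (3 libraries) are given beside them. Every sample carries the same protocol text, so that a library is untreated is known only from its title and its treatment entry. The labels give neither the dose nor the exposure time of luteolin or quercetin, so this 1 pair of compounds is compared at doses that are not known to match. The labels do not say whether replicates were separate cultures; the p-values cover only how far these libraries spread, which may be technical.

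Adipogenesis is the conversion of a preadipocyte into a lipid-storing adipocyte. Glucocorticoid, cyclic AMP and insulin signals switch on early C/EBP factors, which lead to PPARγ and C/EBPα, and these in turn drive genes for lipid uptake, triglyceride synthesis and lipolysis while preadipocyte and matrix genes are turned down. Luteolin is a flavone and quercetin a flavonol: quercetin carries an additional hydroxyl group on the central ring.

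Library totals ran from 14522182 to 19436796 counts. The position of a library on an axis from the untreated mean (0) to the DMI mean (1) was computed over all tested genes. It was 0.890, 0.936 and 0.638 in luteolin libraries 1 to 3 (mean 0.821 ± 0.160, SD, n = 3) and 0.708, 0.684 and 0.388 in quercetin libraries 1 to 3 (mean 0.593 ± 0.179, SD, n = 3). The third library was the lowest of its group in luteolin, quercetin and DMI (1.12, 1.19 and 0.688), and the groups overlapped, since the third luteolin library lay below the first and second quercetin libraries. Because replicate 3 stands apart in each induced group, calls in the main gene lists are also given without it. That choice followed these values and leaves only the first and second library of each induced group. With only the third luteolin and quercetin libraries left out and the third DMI library kept, 0 genes passed an adjusted p of 0.05. The calls without replicate 3 are therefore descriptions. In bulk RNA, fewer adipocytes and less adipocyte RNA per cell cannot be told apart.

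**Figure D1:**
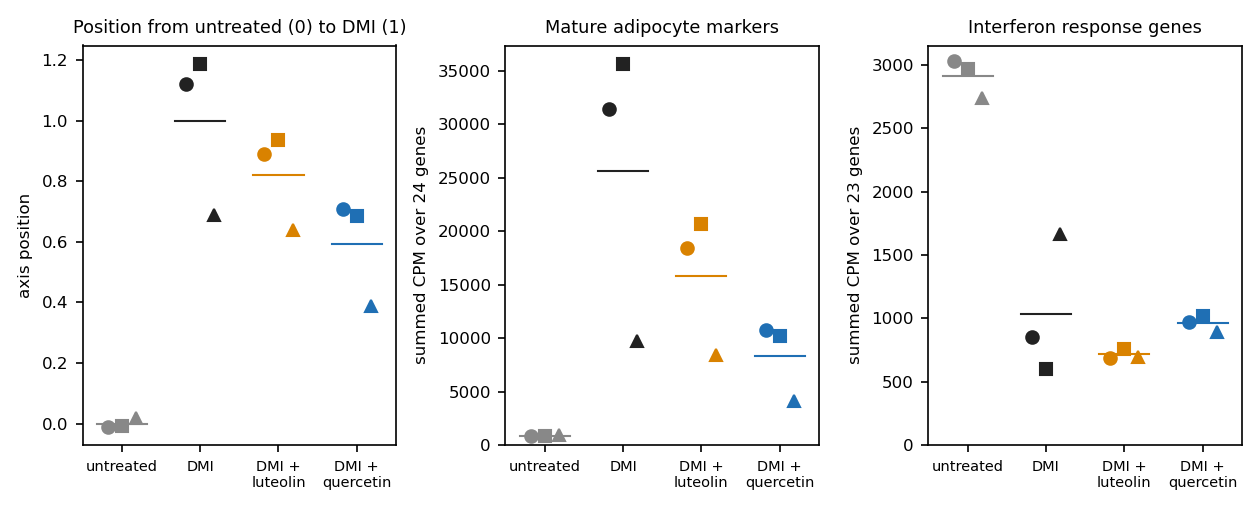
Each point is 1 library (circle, square and triangle for replicates 1, 2 and 3) and each line a group mean; the left axis is the position from untreated (0) to DMI (1), the other axes the summed CPM (counts scaled to library size) of the tested genes of a list. The luteolin and quercetin libraries overlap in the first and second panels, where the third library is the lowest of each induced group, and do not overlap in the interferon panel.

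No gene differed between luteolin and quercetin at an adjusted p under 0.05 in edgeR's quasi-likelihood test (0 of 14855, 0%), and the smallest adjusted p was 0.541. At an unadjusted p under 0.05 there were 1327 genes (8.93%), 563 with luteolin higher and 764 with luteolin lower. DESeq2 called 2 genes, Ffar4 and H19, and limma-voom 0. All 3 luteolin libraries lay above all 3 quercetin libraries for 773 genes (5.2%) and below them for 753 genes (5.07%). Between the first and second libraries alone, 4001 genes (26.9%) had luteolin above quercetin and 3994 (26.9%) had luteolin below. With 3 libraries against 3, an exact permutation test of a single gene cannot go below p = 0.1. The 95% interval of the difference lay within 1 log2 unit of 0 in both directions for 10395 genes (70.0%), and its median half-width was 0.46. A p that misses the threshold does not show that the compounds act alike, and for the remaining genes a 2-fold difference was not excluded by the interval.

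The 773 genes with luteolin above quercetin held 574 (74.3%) whose mean was higher in DMI than in untreated libraries, against 46.4% of all tested genes. The 753 genes with luteolin below quercetin held 615 (81.7%) with the untreated mean above DMI, against 53.6% of all. Across the 14855 genes, the luteolin minus quercetin difference and the DMI minus untreated difference in log2(CPM + 1) had a Pearson r of 0.646. These are descriptions: genes are not independent replicates, and each mean rests on libraries that differ in their position on the axis.

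The 12 protein-coding genes with the largest excess of luteolin over quercetin, among those with a mean of at least 5 CPM in either group and no overlap, had fitted folds from 2.78 to 4.79 and adjusted p from 0.541 to 0.551. In all 12 the means ran in the order DMI, luteolin, quercetin, untreated. Over all tested genes, the order DMI, luteolin, quercetin, with untreated left aside, held in 3966 of 14855. The 12 were picked for luteolin above quercetin. Hcar1, Klb, Slc36a2 and Hcar2 encode proteins of the cell membrane. Hcar1, the lactate receptor that restrains lipolysis (ENSMUSG00000049241, GRCm38 chromosome 5, 123876736 to 123880020), stood at 19.9, 25 and 9.78 CPM with luteolin and 5.24, 3.44 and 4.05 CPM with quercetin. The lowest luteolin library was above the highest quercetin library. Its log2 fold change was 2.10 (SE 0.53, 95% interval 0.95 to 3.25, edgeR adjusted p = 0.541), and its DMI mean was 53.7 CPM.

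Klb, the β-Klotho co-receptor for the hormone FGF21 (ENSMUSG00000029195, chromosome 5, 65348314 to 65384007), read 12.1, 16.6 and 7.99 CPM with luteolin against 3.66, 3.94 and 1.96 CPM with quercetin. Its log2 fold change was 1.93 (95% interval 0.76 to 3.09), and DMI libraries 1 to 3 held 72.7, 67.8 and 15.2 CPM. The third DMI library was thus near the luteolin level and above every quercetin library. Slc36a2, a small amino acid transporter of the plasma membrane (ENSMUSG00000020264, chromosome 11, 55158470 to 55185077), had 7.86, 11.3 and 3.59 CPM with luteolin and 2.02, 1.31 and 1.41 CPM with quercetin. That difference, 2.26 on the log2 scale (95% interval 0.93 to 3.58), was the largest of the 12, and untreated libraries were at 0 counts.

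Hcar2, the niacin and ketone-body receptor, followed at 14.4, 16.7 and 6.99 CPM against 5.68, 5.05 and 2.58 CPM (log2 fold change 1.51). The third library of each compound was the lowest, and the third luteolin library was still above every quercetin library. The secreted protein haptoglobin (Hp) had a log2 fold change of 2.06, carbonic anhydrase 2 (Car2) of 1.94, and Siglec1, a sialic-acid-binding receptor, of 1.69.

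Sema3g, a secreted semaphorin (ENSMUSG00000021904, chromosome 14, 31217860 to 31230352), departed from that library order. It had 7.51, 12.8 and 8.72 CPM with luteolin and 3.33, 2.43 and 3.31 CPM with quercetin, so the third library was not the lowest of either compound. Its log2 fold change was 1.68 (95% interval 0.74 to 2.62). Hipk2, a nuclear kinase gene (ENSMUSG00000061436, chromosome 6, 38694390 to 38876165), had 382, 420 and 194 CPM with luteolin and 183, 62.9 and 93.9 CPM with quercetin (log2 fold change 1.55). Here the second quercetin library was the lowest and the groups were separated by a narrow gap between 183 and 194 CPM. The basement membrane collagen gene Col15a1 (log2 fold change 1.57) and the apolipoprotein gene Apol6 (1.48) were also among the 12.

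**Figure D2:**
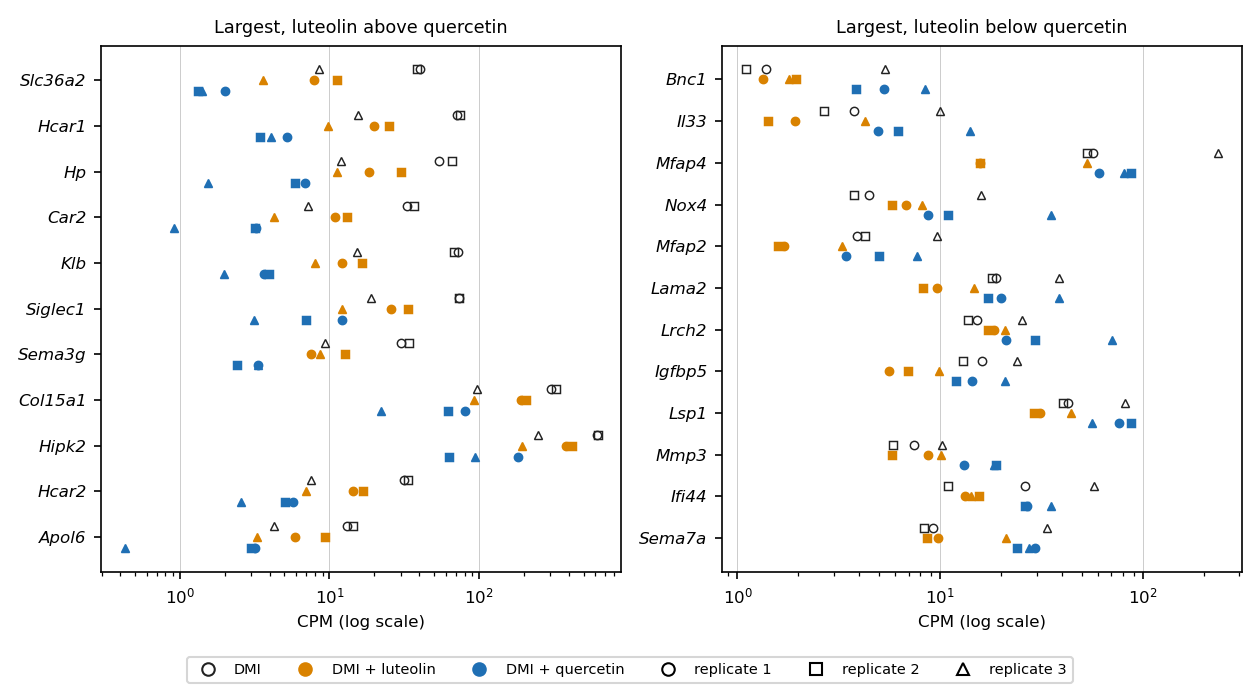
CPM on a log axis for the named protein-coding genes with the largest fold change in each direction among genes whose luteolin and quercetin libraries do not overlap (11 on the left, 12 on the right); each symbol is 1 library, shaped by replicate. On the left the DMI libraries lie mostly to the right of luteolin, and luteolin to the right of every quercetin library; on the right luteolin lies to the left of every quercetin library.

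In the opposite direction the 12 largest differences had fitted folds from 2.04 to 3.45 and adjusted p from 0.541 to 0.552. In all 12 the untreated mean was above the DMI mean and the luteolin mean below the untreated mean. In 10 the luteolin mean was also below DMI, and in 8 the quercetin mean was above DMI. Over all 14855 tested genes, the luteolin mean was below DMI in 7898 and the quercetin mean below DMI in 7190. Of the 12, Mfap4, Lama2 and Mfap2 encode matrix proteins and Mmp3 a matrix protease. Mfap4, a microfibril-associated glycoprotein, had 15.7, 15.8 and 52.9 CPM with luteolin and 60.5, 87.9 and 81.1 CPM with quercetin (log2 fold change -1.45, 95% interval -2.66 to -0.23, and -2.28 without the third luteolin library). Lama2, a laminin chain of the basement membrane, had 9.61, 8.20 and 14.6 CPM against 19.9, 17.2 and 38.6 CPM (log2 fold change -1.22). The third library was the highest of each compound in Lama2, and its luteolin value still lay below all quercetin values.

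Mmp3, the matrix protease stromelysin (ENSMUSG00000043613, chromosome 9, 7445822 to 7455975), had 8.67, 5.78 and 10.1 CPM with luteolin and 13.2, 18.9 and 18.5 CPM with quercetin. Its DMI libraries held 7.42, 5.82 and 10.2 CPM, so luteolin libraries lay at the DMI level and quercetin libraries above it. The log2 fold change was -1.04 (SE 0.24, 95% interval -1.57 to -0.51, edgeR adjusted p = 0.541). Mfap2, another microfibril protein gene, had a log2 fold change of -1.31.

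Igfbp5, an insulin-like growth factor binding protein, had 5.59, 6.90 and 9.85 CPM with luteolin and 14.3, 12 and 20.8 CPM with quercetin (log2 fold change -1.08, 95% interval -1.68 to -0.47). Its DMI libraries, at 16, 13 and 24 CPM, overlapped those with quercetin and lay above those with luteolin. Igf1 itself, the growth factor, overlapped between the compounds: 36.3, 36.7 and 53.6 CPM with luteolin and 50.4, 68.5 and 156 CPM with quercetin (log2 fold change -1.12, 95% interval -1.96 to -0.27, and -0.50 without the third quercetin library). The others of the 12 were Bnc1, a zinc finger factor (log2 fold change -1.78), the alarmin cytokine Il33 (-1.73), the NADPH oxidase Nox4 (-1.40), Lrch2 (-1.09), Lsp1, a leukocyte actin-binding protein (-1.07), the interferon-induced gene Ifi44 (-1.03) and Sema7a (-1.03). Without the third quercetin library the values were -0.51 for Nox4, -0.42 for Lrch2 and -1.14 for Il33, which stood at -2.32 without the third luteolin library.

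H19, an imprinted long noncoding RNA that the rule for protein-coding genes leaves out, had the smallest unadjusted p of all genes and is named after its values were seen. It had 5.59, 4.19 and 4.99 CPM with luteolin and 14.7, 13.5 and 7.42 CPM with quercetin (log2 fold change -1.27, SE 0.23, edgeR adjusted p = 0.541). DMI libraries 1 to 3 stood at 15.8, 19.5 and 21.2 CPM and the untreated mean was 38.5 CPM, so every luteolin and quercetin library lay below every DMI library. Smoc2, a matricellular protein gene also named after its values were seen, had 1.34, 1.06 and 1.53 CPM with luteolin and 3.11, 2.58 and 5.28 CPM with quercetin (log2 fold change -1.47).

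The authors' deposited table holds its own comparison of quercetin with luteolin. Of 24140 genes with an adjusted p in it, 16 are under 0.05 (0.0663%), 12 lower and 4 higher with quercetin. All 16 had the same direction here and libraries that did not overlap. In the authors' deposited table the smallest adjusted p is that of Hcar1 (5.22e-05), followed by the pseudogene Gm8666 and Klb (0.000399), Sema3g (0.000632) and Slc36a2 (0.000736). The 4 genes higher with quercetin are Apod, Ifi44, Bnc1 and Lsp1 in the authors' deposited table. Apod, a lipid-carrying lipocalin, had 287, 257 and 274 CPM with luteolin and 446, 549 and 621 CPM with quercetin (log2 fold change -0.98, edgeR adjusted p = 0.541). Its luteolin libraries were close together, between 257 and 287 CPM, and its quercetin libraries lay between 446 and 621 CPM.

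Among the others in the authors' deposited table, the phosphatase gene Dusp4 had 62.3, 75.7 and 36.5 CPM with luteolin and 30.2, 23 and 17 CPM with quercetin. Lfng, a glycosyltransferase that modifies Notch, had a log2 fold change of 1.44 and the retinol dehydrogenase Rdh12 of 2.15. Gm8666 and Gm6473 are pseudogenes, whose reads may be shared with near-identical copies, so their values are uncertain. DESeq2 run on only the 6 libraries called the same 16 genes (edgeR on the same 6 called 0), and its log2 fold changes were within 0.001 of those in the authors' deposited table for all 24140 genes. The 16 calls and the 0 calls of the test over 12 libraries therefore come from the same counts and nearly the same fold changes, and differ in the tool and in the libraries that set the spread.

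The count moved with the settings and with the libraries in the fit. With all 12 libraries kept, it was 450 without the low-count filter, 446 of them genes that pass it. It was 14 with the replicate number as a block. With edgeR, leaving out replicate 3 of luteolin, quercetin and DMI together gave 2081 of 15106 genes (13.8%), 1050 with luteolin higher (6.95%) and 1031 lower (6.83%), and all of the authors' 16 were among them. Leaving out only the third luteolin and quercetin libraries gave 0, and leaving out only the third DMI library gave 0, although DMI is no member of the contrast. A fit of only the first and second luteolin and quercetin libraries gave 770. These subsets were chosen knowing which libraries stood apart, and dropping the most distant library makes the remaining spread smaller. Leaving out any 1 of the 12 libraries gave from 0 to 10 genes, the 10 without the first quercetin library.

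**Figure D3:**
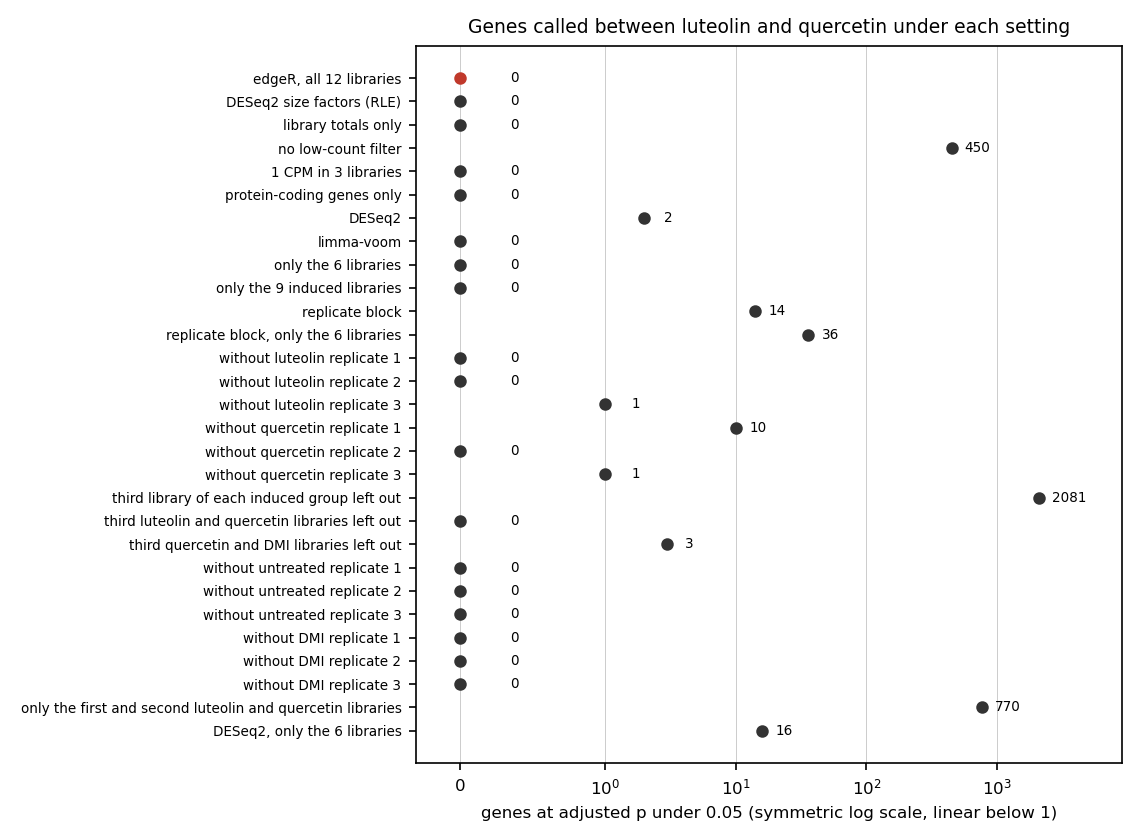
Number of genes at an adjusted p under 0.05 between luteolin and quercetin, on a symmetric log axis, for the test over all 12 libraries (red) and each alternative (black). The number is 0 for most settings, 16 for DESeq2 on the 6 libraries, 450 without the low-count filter and 2081 without replicate 3 of the induced groups.

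A panel of 16 adipocyte genes gave 0 calls, 0 genes without overlap and a median log2 fold change of 0.89, with 14 of 16 above 0, beside a median of -0.01 over all tested genes. Pparg, the master regulator of adipogenesis, had 204, 231 and 97.6 CPM with luteolin and 114, 126 and 60.1 CPM with quercetin. Cebpa, its partner factor, had 279, 301 and 134 CPM with luteolin and 163, 154 and 52.2 CPM with quercetin. In both genes luteolin libraries 1 and 2 were above all quercetin libraries, and luteolin library 3 was below quercetin libraries 1 and 2 and above quercetin library 3. Their log2 fold changes were 0.83 (95% interval -0.10 to 1.75) and 0.95 (-0.09 to 2.00).

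The early factor Cebpb had 145, 146 and 152 CPM with luteolin and 170, 183 and 73.5 CPM with quercetin, a log2 fold change of 0.05 (95% interval -0.52 to 0.62), and without the third quercetin library it was -0.26. Fabp4, the fatty acid binding protein of adipocytes, had 1812, 2076 and 794 CPM with luteolin and 1197, 1274 and 205 CPM with quercetin. The adipokine gene Adipoq had 1132, 1345 and 396 CPM against 609, 641 and 131 CPM. Both had wide intervals, -0.73 to 2.35 around 0.81 for Fabp4 and -0.40 to 2.51 around 1.06 for Adipoq. Leaving out 1 library, Fabp4 ran from 0.34 to 1.15 and Adipoq from 0.61 to 1.43, both lowest without the third quercetin library. Slc2a4, the insulin-responsive glucose transporter GLUT4, had 40.6, 47.0 and 18.3 CPM with luteolin against 18.8, 13.9 and 5.65 CPM with quercetin, which missed separation by a single pair of libraries (log2 fold change 1.46, 95% interval 0.24 to 2.68). The lipoprotein lipase Lpl (0.79, interval 0.01 to 1.58) and the fatty acid synthase Fasn (0.63, interval 0.03 to 1.24) also had intervals above 0 at an adjusted p of 0.552. For the desaturase Scd1 (0.83), the lipid droplet genes Plin1 (1.26) and Cidec (1.13), the fatty acid transporter Cd36 (0.95) and the hormone-sensitive lipase Lipe (1.06) the interval reached below 0. The panel members below 0 were the preadipocyte factor Dlk1 (-0.85) and Cyp1b1 (-0.17). With replicate 3 left out of all induced groups 11 of the 16 passed, 10 of them with luteolin higher (62.5%, beside 6.95% of all tested genes).

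The wider list of mature adipocyte markers had 24 tested genes, all with a fold change above 0 and a median of 1.10. Leaving out 1 library, the median ran from 0.71 without the third quercetin library to 1.44 without the first quercetin library. None was called, and Hcar1, Klb and Ffar4 did not overlap (12.5%, beside 5.2% of all tested genes). In all 24 the first and second luteolin libraries were above every quercetin library, which held for 17.1% of all tested genes. In 21 of 24 (87.5%) the third quercetin library was the lowest of the 6, beside 33.5% of all tested genes. In 21 the third luteolin library lay below the highest quercetin library, which was near the 83.1% of all tested genes. The summed level was 18390, 20640 and 8402 CPM with luteolin and 10780, 10190 and 4115 CPM with quercetin, beside 31400, 35630 and 9738 CPM in DMI. With replicate 3 left out of all induced groups, 20 of the 24 passed, all with luteolin higher (83.3%, beside 6.95% of all tested genes). That subset was chosen after the values were seen, and with the third DMI library kept 0 genes passed.

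Ffar4, the receptor for long-chain fatty acids (ENSMUSG00000054200, chromosome 19, 38097079 to 38114263), had the largest fold change of the tested genes that were higher with luteolin. It had 0.699, 3.72 and 2.40 CPM with luteolin and 0.218, 0.0505 and 0.307 CPM with quercetin, from 111 and 10 counts in all. The log2 fold change of 3.56 had a 95% interval of 1.65 to 5.47, and the untreated libraries were at 0 counts.

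Lipolysis genes showed the largest list median. All 12 tested were above 0, with a median of 1.15 and 0 calls, and 4 did not overlap (33.3%, beside 5.2% of all tested genes): Hcar1, Hcar2, Mgll and G0s2. Hcar1 is also counted among the mature adipocyte markers, and lists that share members are not separate results. Of the 12, 11 passed without replicate 3 of the induced groups, with luteolin higher (91.7%, beside 6.95%). Mgll, which cleaves the last fatty acid from glycerol, had 7.74, 13.4 and 4.92 CPM with luteolin and 4.26, 3.08 and 2.70 CPM with quercetin (log2 fold change 1.38, 95% interval 0.30 to 2.46). G0s2, an inhibitor of the triglyceride lipase ATGL named here after its values were seen, had 80.4, 100 and 47.0 CPM against 39.3, 43.1 and 14.1 CPM (log2 fold change 1.24). The list thus held both enzymes and inhibitors of lipolysis on the luteolin side. Among 19 adipogenic transcription factors the median was 0.31, 15 were above 0, and 2 did not overlap (10.5%, beside 5.2% of all tested genes): Zfp467 (0.61, 95% interval 0.12 to 1.11) and Mlxipl, the factor ChREBP (1.36, interval -0.28 to 2.99), named after its values were seen. Klf15, a glucocorticoid-induced factor, overlapped (1.44, interval 0.14 to 2.74). Of these factors 9 of 19 passed with luteolin higher (47.4%, beside 6.95%) and 1 with luteolin lower without replicate 3 of the induced groups.

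Lists for metabolism had smaller medians and no call. Lipogenesis and triglyceride synthesis had a median of 0.41 with 19 of 21 genes above 0 and none without overlap; its smallest unadjusted p values included those of Acacb (0.65) and Dgat2 (1.22), which catalyses the final step of triglyceride synthesis. Breakdown of branched-chain amino acids had a median of 0.45 with 18 of 18 above 0, Dbt (0.80) being one of them. Fatty acid oxidation (17 of 19 above 0, median 0.34) and nuclear genes of oxidative phosphorylation (20 of 22 above 0, median 0.32) had no gene without overlap either. In the latter list, luteolin library 3 lay below the highest quercetin library in all 22 genes, beside 83.1% of all tested genes. Without replicate 3 of the induced groups, all calls in these lists had luteolin higher, beside 6.95% of all tested genes. They were 11 of 22 genes in lipogenesis (50%), 12 of 18 in branched-chain amino acid breakdown (66.7%), 11 of 19 in fatty acid oxidation (57.9%) and 9 of 22 in oxidative phosphorylation (40.9%). Uqcrc2, a core subunit of complex III, had 217, 225 and 129 CPM with luteolin and 146, 145 and 110 CPM with quercetin (log2 fold change 0.51, 95% interval -0.06 to 1.08). Without the third quercetin library the median of this list was 0.10, and without the second it was 0.50.

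In glycolysis and hypoxia genes the median was only 0.26, yet 7 of 19 did not overlap, all with luteolin higher (36.8%, beside 5.2% of all tested genes). Without replicate 3 of the induced groups 8 of 19 passed, all with luteolin higher (42.1%, beside 6.95%). Pfkl, a subunit of the committed step enzyme phosphofructokinase, had 126, 161 and 116 CPM with luteolin and 98.1, 92.5 and 45.3 CPM with quercetin (log2 fold change 0.77). Pfkp, another subunit, had 62.8, 64.7 and 60.3 CPM against 52.6, 49.5 and 42.7 CPM (0.37, 95% interval 0.05 to 0.70). The luteolin libraries of Pfkp were within 5 CPM of each other, and the third was not set apart. Hk2, the insulin-regulated hexokinase, overlapped by a single pair of libraries (0.84, interval 0.15 to 1.53). In insulin signalling, Irs1 had 134, 138 and 108 CPM with luteolin and 98.5, 54.9 and 99.0 CPM with quercetin (0.59).

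**Figure D4:**
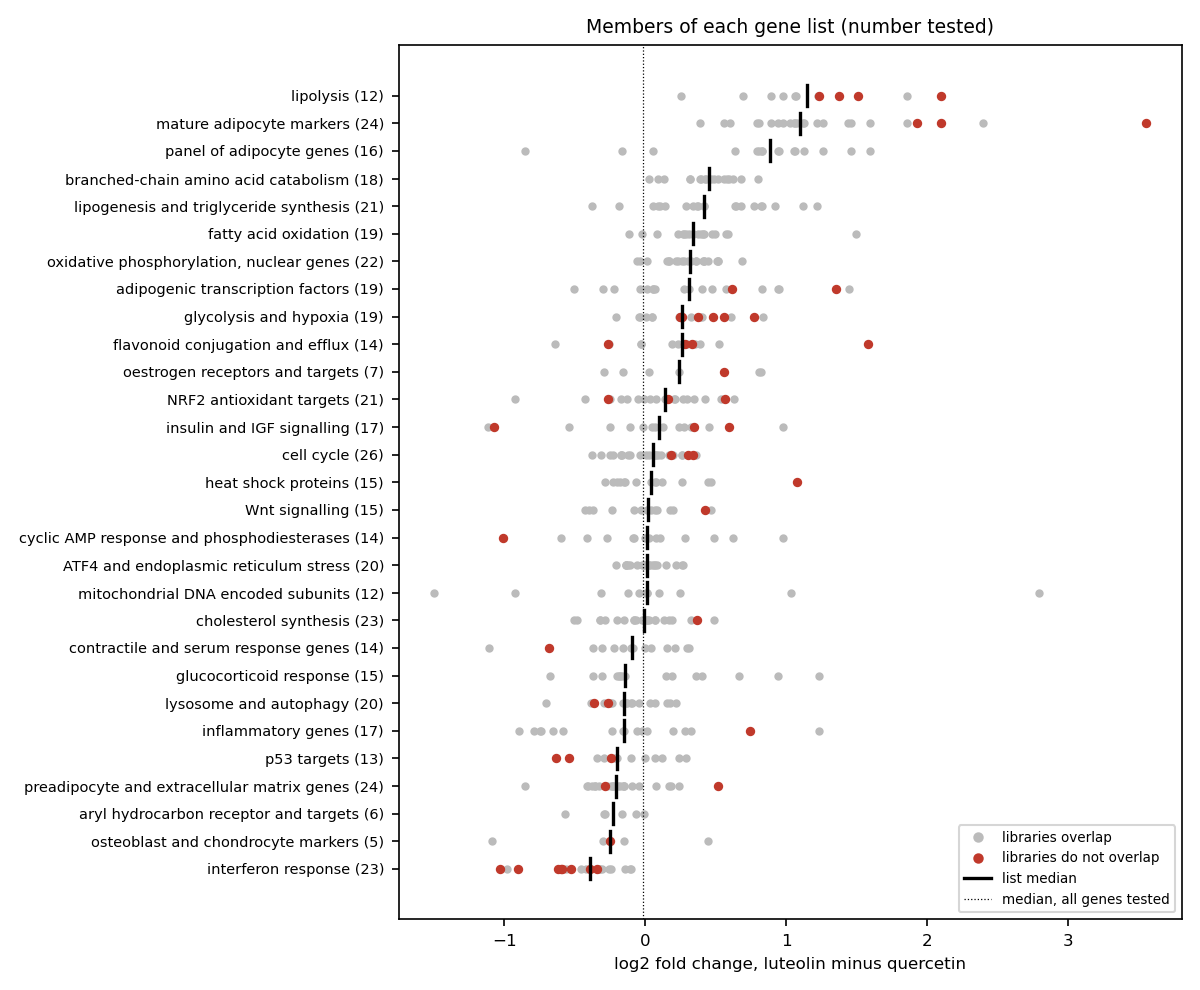
Log2 fold change, luteolin minus quercetin, of every tested member of the gene lists with at least 5 tested members; black ticks are list medians, red points genes whose 3 luteolin and 3 quercetin libraries do not overlap, and the dotted line the median of all tested genes (-0.01). Lipolysis and mature adipocyte markers have the highest medians (1.15 and 1.10) and the interferon list the lowest (-0.39).

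Interferon response genes lay on the other side. All 23 tested had a fold change below 0, with a median of -0.39, none was called, and 8 did not overlap, all with luteolin lower (34.8%, beside 5.07% of all tested genes). Only Ifi44 had an unadjusted p under 0.05. Ifi44 had 13.2, 15.6 and 14.2 CPM with luteolin and 26.7, 26.2 and 35.3 CPM with quercetin (log2 fold change -1.03, 95% interval -1.91 to -0.15, edgeR adjusted p = 0.541). Its DMI libraries spanned both, at 26.3, 11.0 and 57.7 CPM, and its untreated mean was 140 CPM. Ddx58, the RNA sensor RIG-I, had 76.0, 81.3 and 82.5 CPM with luteolin and 98.0, 96.2 and 152 CPM with quercetin (-0.53, interval -1.11 to 0.05).

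Rsad2, the antiviral enzyme viperin, had 5.36, 6.61 and 2.26 CPM with luteolin and 9.01, 9.05 and 8.71 CPM with quercetin (-0.90, interval -1.91 to 0.10). Ifit1, which binds foreign RNA ends and is named after its values were seen, had 37.1, 54.4 and 32.3 CPM against 57.2, 63.0 and 70.1 CPM (-0.62, interval -1.31 to 0.08). Summed over the list, luteolin libraries held 688.7, 761.1 and 698.6 CPM and quercetin libraries 974.1, 1019 and 889.6 CPM, which do not overlap. DMI libraries ranged from 598.2 to 1664 CPM and untreated libraries from 2738 to 3033 CPM. In these sums the third library of a compound was not set apart as it was in the summed adipocyte markers. Leaving out any 1 library, the list's median ran from -0.47 to -0.32, and with replicate 3 left out of all induced groups 6 of 23 genes passed, all with luteolin lower (26.1%, beside 6.83% of all tested genes). Of the genes given above, Ifi44 passed in that fit (edgeR adjusted p = 0.032). Ddx58, Rsad2 and Ifit1 did not (edgeR adjusted p of 0.088, 0.115 and 0.222).

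Interferon-stimulated genes are bound by the factor complex ISGF3 at a sequence, the interferon-stimulated response element, whose core can be written GAAANNGAAA. This core was searched on both strands in the 250 bases before the annotated start (RefSeq promoters, GRCm38.p6). It occurred in 11 of the 18 list genes with a promoter in the table, beside 936 of 27025 genes (3.46%). Of the 7 genes with a promoter among the 8 without overlap it occurred in 2, Ifit1 and Rsad2, and of the 11 overlapping ones in 9. Their 80-base stretches are shown because they hold the core beside 2 of the lower genes, with the matches in capitals; both read on the other strand, as TTTCNNTTTC. The Ifit1 stretch is chr19:34640769-34640848 on the plus strand and the Rsad2 stretch chr12:26456528-26456607 on the minus strand.
Ifit1: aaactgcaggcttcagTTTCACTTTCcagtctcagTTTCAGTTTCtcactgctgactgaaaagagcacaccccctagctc
Rsad2: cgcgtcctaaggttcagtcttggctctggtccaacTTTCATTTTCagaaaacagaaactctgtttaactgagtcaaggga
Ifit1 holds 2 matches and Rsad2 has 1. A match describes letters in a window and says nothing of binding.

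**Figure D5:**
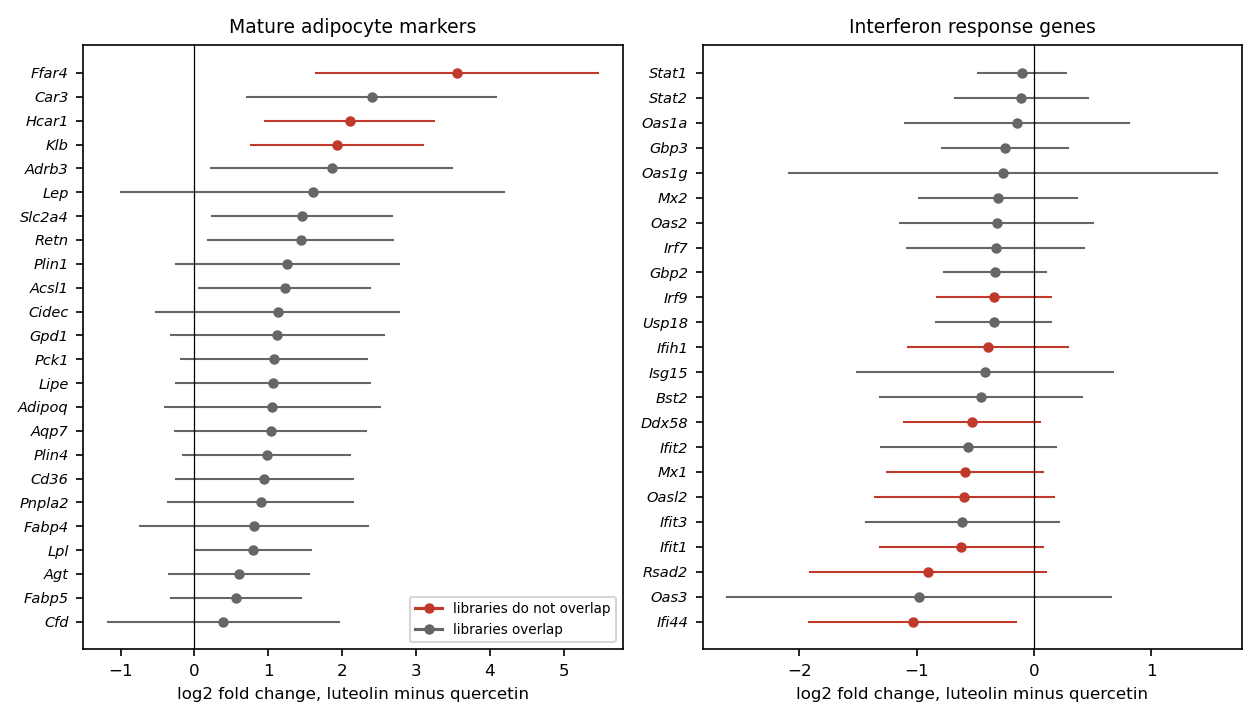
Fitted log2 fold change, luteolin minus quercetin, with its 95% interval, for the 24 tested mature adipocyte markers and the 23 tested interferon response genes; red marks genes whose libraries do not overlap. All adipocyte markers lie above 0 and all interferon genes below 0, and most intervals include 0.

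Preadipocyte and extracellular matrix genes had a median of -0.21, with 19 of 24 below 0 (7663 of 14855 over all tested genes) and 0 called. Without replicate 3 of the induced groups 8 of 24 passed with luteolin lower (33.3%, beside 6.83%) and 1 with luteolin higher. Dlk1, which restrains adipogenesis, had 1209, 995 and 2039 CPM with luteolin and 1996, 2352 and 3321 CPM with quercetin (log2 fold change -0.85, 95% interval -1.52 to -0.19, edgeR adjusted p = 0.541). The third luteolin library was just above the first quercetin library. Pdgfra, a receptor of adipocyte progenitors, did not overlap at 612, 612 and 678 CPM against 773, 728 and 821 CPM (-0.29). Col6a3 went the other way without overlap, at 4406, 4600 and 4095 CPM with luteolin and 3850, 2468 and 2823 CPM with quercetin (0.52, interval 0.15 to 0.89). No other gene of the list was without overlap. The share was 4.17% with luteolin lower (beside 5.07% of all tested genes) and 4.17% with luteolin higher (beside 5.2%). Col6a3 was 1 of 5 genes of this list with a higher mean in DMI than in untreated libraries.

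Flavonoids can bind the aryl hydrocarbon receptor. All 6 tested genes of its list were below 0, and in all 6 the quercetin mean was above both the luteolin and the DMI mean (6160 of 14855 over all tested genes). None was called, also without replicate 3 of the induced groups, or without overlap. The list's median was -0.23, and -0.03 without the third quercetin library. Aldh3a1, an aldehyde dehydrogenase, had the lowest value of the list, at 1.46, 1.30 and 1.46 CPM with luteolin and 2.73, 2.27 and 1.23 CPM with quercetin (-0.57, 95% interval -1.37 to 0.24). The receptor gene Ahr itself had 4.31, 3.48 and 5.32 CPM against 3.17, 2.78 and 10.2 CPM (-0.30), and its direction turned to 0.55 without the third quercetin library. Cyp1b1, a target of that receptor, had 321, 328 and 376 CPM with luteolin and 329, 324 and 495 CPM with quercetin, an interval of -0.55 to 0.22 around -0.17. Tiparp, another target, had an interval of -0.64 to 0.07 around -0.29. Of 21 antioxidant genes under NRF2, 13 were above 0, and the median was 0.14. Without replicate 3 of the induced groups 4 of the 21 passed with luteolin higher (19%, beside 6.95% of all tested genes) and 1 with luteolin lower (4.76%, beside 6.83%). Fth1, the ferritin heavy chain, had 3634, 3319 and 3506 CPM with luteolin and 3772, 4753 and 4055 CPM with quercetin (-0.27, interval -0.55 to 0.01), all above the DMI libraries at 2758, 2692 and 2748 CPM.

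Genes that conjugate or export flavonoids had a median of 0.26 over 14 tested, a range from -0.64 to 1.58 and 0 calls. In 3 of 14 luteolin was higher without overlap (21.4%, beside 5.2% of all tested genes), and in 1 it was lower (7.14%, beside 5.07%). In the fit without replicate 3, 4 passed with luteolin higher (28.6%, beside 6.95%) and 1 with luteolin lower (7.14%, beside 6.83%). The largest difference was that of Abcb1a, an efflux pump of the P-glycoprotein family, at 0.640, 0.649 and 0.599 CPM with luteolin and 0.218, 0.0505 and 0.368 CPM with quercetin, from 31 and 11 counts in all. Its log2 fold change was 1.58 (95% interval 0.24 to 2.92, edgeR adjusted p = 0.541), and 2.19 without the third quercetin library. Abcb1a thus did not overlap, at a level that rests on few counts. In the fit without replicate 3 it did not pass (edgeR adjusted p = 0.078). The sulfotransferase Sult1a1 overlapped, with 28.7, 32.7 and 17.3 CPM against 23.6, 22.5 and 8.41 CPM (0.53, interval -0.50 to 1.55). The exporter Abcc1 had 103, 101 and 88.0 CPM against 87.6, 64.6 and 87.9 CPM (0.28), a separation of less than 1 CPM between the nearest libraries. Gusb, a glucuronidase that can free conjugated flavonoids, lay lower with luteolin without overlap (-0.26, 95% interval -0.53 to 0.00). The exporter Abcg2 overlapped (-0.26, interval -0.61 to 0.09). Abcc3, another exporter and the lowest of the list (-0.64, interval -2.07 to 0.79), rested on 16 and 28 counts in all and turned to 0.39 without the first quercetin library.

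In the remaining lists no gene passed in the test over 12 libraries, and most medians were near 0. Without replicate 3, 3 of 15 glucocorticoid response genes passed with luteolin higher (20%, beside 6.95% of all tested genes) and 5 with luteolin lower (33.3%, beside 6.83%). Of 17 insulin and IGF signalling genes 5 passed with luteolin higher (29.4%) and 3 with luteolin lower (17.6%). Of 14 contractile and serum response genes 4 passed, all with luteolin lower (28.6%). Lysosome and autophagy genes had 15 of 20 below 0 and a median of -0.15, and 7 of 20 passed with luteolin lower without replicate 3 (35%, beside 6.83% of all tested genes); Map1lc3b, the LC3B autophagosome marker, had 179, 177 and 206 CPM with luteolin and 207, 260 and 255 CPM with quercetin (-0.36). Targets of p53 had 9 of 13 below 0, beside 7663 of 14855 tested genes, with Gadd45a, Eda2r and Mdm2 without overlap (23.1%, beside 5.07%). Of these 13, 2 passed with luteolin lower without replicate 3 (15.4%, beside 6.83%). Gadd45a was 1 of them, while Eda2r and Mdm2 did not pass (edgeR adjusted p of 0.155 and 0.511 in that fit). Gadd45a, a stress-induced gene, had 29.7, 25.4 and 31.1 CPM against 39.4, 50.4 and 35.7 CPM (-0.54, 95% interval -0.92 to -0.17). Inflammatory genes ran both ways: Lcn2, an acute-phase lipocalin, was at 1.24, the chemokine Ccl5 at 0.75, and 11 of 17 were below 0. Cell cycle genes (median 0.05 over 26) held 3 without overlap (11.5%, beside 5.2% of all tested genes), among them Ccnd2 (0.34) and Cdc20 (0.31). Medians for ATF4 and endoplasmic reticulum stress, heat shock, Wnt, cyclic AMP and cholesterol synthesis genes lay between -0.01 and 0.04.

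Markers of other cell types were low or shared by preadipocytes. The summed osteoblast and chondrocyte markers stood at 193, 183 and 306 CPM with luteolin and 271, 281 and 513 CPM with quercetin, beside 128, 115 and 308 CPM in DMI and up to 495 CPM in untreated libraries. Of the 5 tested, 2 passed with luteolin lower without replicate 3 of the induced groups (40%, beside 6.83% of all tested genes). In that list Spp1, a matrix phosphoprotein, had 75.6, 66.4 and 154 CPM with luteolin and 124, 142 and 363 CPM with quercetin (log2 fold change -1.09, 95% interval -2.37 to 0.19, and -0.43 without the third quercetin library). The part of these cells in the results was not tested. Muscle markers summed to at most 15.2 CPM, and macrophage, endothelial and epithelial markers to at most 9.30 CPM, in the luteolin and quercetin libraries. Of brown and beige markers 4 of 12 were tested, and Ucp1 and Cidea were too low to test. Ppara, a fatty acid oxidation regulator in that list, had 1.75, 2.01 and 0.732 CPM with luteolin and 0.709, 0.505 and 0.123 CPM with quercetin (1.71, interval 0.53 to 2.89). The nearest libraries of the compounds stood at 0.732 and 0.709 CPM, and levels this low rest on few counts.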

How the data were processed

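The deposited counts per gene were made by the authors with featureCounts 1.5.0-p3, and CASAVA 1.8.2 is also named, per the submitters' processing notes. An aligner was not given in the sources used here. FPKM columns were deposited as well and left unused, beside a comparison of quercetin with luteolin as log2 fold changes and p-values. The notes name mm9, but 98.3% of gene positions in the deposited table equal GENCODE M21 on GRCm38. Whether counting used strand is not given, so overlapping and antisense genes cannot be separated.

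The test on counts used edgeR 4.0.16 (R 4.3.3) over all 12 libraries: filterByExpr, TMM, quasi-likelihood fit with 1 term per group, Benjamini-Hochberg over 14855 genes, threshold 0.05. SE and 95% intervals follow from the F statistic. CPM are TMM-scaled. The axis used log2 CPM with a prior count of 2. The fit was also run on simulated counts with known changes, as a check of the code. Those libraries were drawn independently with no replicate set apart, so the run does not bear on the number of calls. Alternatives included DESeq2 1.42.0 and limma 3.58.1.

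Members, the 32 lists and tests were chosen with earlier results of these data known. Named genes are an adipocyte panel, the 12 largest non-overlapping protein-coding genes each way at 5 CPM or more, up to 3 members of each list by smallest p, all tested aryl hydrocarbon receptor and conjugation genes, some of which are given by list only, and the authors' 16; a few genes that the rule takes are not reported here. Replicates differed beyond sampling noise in every pair (chi-square per gene at least 2.68).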

Additional observations from a re-analysis of the deposited data

How the results depend on the processing

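The count of genes at an adjusted p under 0.05 was 0 and stayed 0 with RLE scaling, library totals, 1 CPM in 3 libraries, protein-coding genes, limma-voom, only the 6 libraries and the 9 induced libraries. It was 450 without the low-count filter (446 of them genes that pass it), 2 with DESeq2 and 16 with DESeq2 on the 6 libraries. Leaving out 1 library gave 0 to 10. Chosen partly after seeing the data, leaving out the third libraries gave 2081 (luteolin, quercetin and DMI), 0 (luteolin and quercetin) and 3 (quercetin and DMI), and 770 with only the first and second luteolin and quercetin libraries. With a replicate block the count was 14, all with luteolin higher, and 36 on the 6 libraries. Same-numbered libraries deviated together with r = 0.079, 0.089 and 0.207, and luteolin library 2 correlated best with quercetin library 1 (0.160). The third pair had the highest r of all pairs. Luteolin library 3 was at -0.18 and -0.12 with quercetin libraries 1 and 2. The labels name no model, so the numbers were not taken as pairing and the replicate block was kept as an alternative. The test over 12 libraries therefore leaves anything that replicate 3 shares across groups in the spread. Counts of genes without overlap ran from 773 to 845 and from 707 to 753 across scalings. Leaving out 1 library, Cebpb ran from -0.26 to 0.28, Cyp1b1 from -0.27 to 0.063, Ahr from -0.61 to 0.55 and Abcc3 from -1.07 to 0.39. Cebpb turned to -0.26 without the third quercetin library, alone or with the third DMI library, and to -0.28 in the 3 settings that leave out the third luteolin and quercetin libraries; Cyp1b1 turned to 0.063 without the third quercetin library, alone or with the third DMI library. Ahr turned to 0.55 without the third quercetin library, alone or with the third DMI library, and to 0.39 in the 3 settings that leave out the third luteolin and quercetin libraries; Abcc3 turned to 0.39 without the first quercetin library. Every other gene given with a fold change kept its direction under each of the 28 alternatives that gave it a value; H19, Gm8666, Gm6473, 4933412E12Rik and Abcb1a had a value in 27. Leaving out the third quercetin library moved the folds of Nox4, Lrch2, Igf1, Il33, Spp1, Ahr, Abcb1a, Gm8666 and mt-Atp6 by over 1.5 times; so did the third luteolin library for Mfap4 and Il33, the first for Gm6473, mt-Nd3 and mt-Atp6, and the first quercetin library for Abcc3. The cause was not tested. Genes under about 1 CPM, such as Abcb1a and Ffar4 with quercetin, rest on few counts.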

Other observations

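Cytosolic ribosomal protein genes, a group chosen after its values were seen, lay lower with luteolin than with quercetin. Of 77 tested, 67 had a fold change below 0, the median was -0.26, none was called, and 24 had no overlap, all with luteolin lower (31.2%, beside 5.07% of all tested genes). Without replicate 3 of luteolin, quercetin and DMI 55 of 77 passed, all with luteolin lower (71.4%, beside 6.83%). As a share of all counts they made up 2.31%, 2.31% and 2.78% of the luteolin libraries and 2.96%, 3.56% and 2.59% of the quercetin libraries, which overlap. The 77 genes differ widely in level, with luteolin means of 1005 CPM for Rpl4 and 0.613 CPM for Rpl36al. The lowest of them rest on few counts.

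Of 12 tested subunit genes of mitochondrial DNA, 7 had a fold change above 0, and the median was 0.01. None was called or without overlap. Without replicate 3 of luteolin, quercetin and DMI 5 of 13 passed, all with luteolin higher (38.5%, beside 6.95% of all tested genes). Luteolin libraries lay far apart in mt-Nd3, and libraries of both compounds in mt-Atp6. The complex I gene mt-Nd3 had 39.8, 26.5 and 2.00 CPM with luteolin and 2.02, 3.49 and 4.36 CPM with quercetin. The ATP synthase gene mt-Atp6 had 101, 54.2 and 22.2 CPM with luteolin and 52.5, 126 and 324 CPM with quercetin. The whole mitochondrial share was 4.41%, 4.73% and 2.91% of counts with luteolin and 3.29%, 3.92% and 4.65% with quercetin.

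A few genes with small p-values and no overlap lay outside the naming rule. The transcript 4933412E12Rik had 17.2, 15.2 and 18.0 CPM with luteolin and 25.9, 28.3 and 29.8 CPM with quercetin, beside 15.4, 16.6 and 20.5 CPM in DMI. Medag, a gene named for its role in adipogenesis, had 17.1, 18.8 and 16.4 CPM with luteolin and 23.5, 27.0 and 26.4 CPM with quercetin. Edil3, a matrix protein gene, had 19.7, 22.9 and 25.2 CPM against 35.1, 34.8 and 52.0 CPM. In each, the quercetin libraries lay above the DMI range and the luteolin libraries near it. The edgeR adjusted p was 0.541 for each.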
